A study of Mus musculus with 10 samples.

Results

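The 10 genes described here encode phospholipase C isoforms (Plcb1, Plcb3, Plcb4, Plcg1 and Plcg2) and protein kinase C isoforms (Prkca, Prkcb, Prkcd, Prkce and Prkcz). They were taken by symbol with earlier results of these data known, and are 10 of the 55385 gene identifiers in the deposited tables. RNA was sequenced from 5 libraries of WT31, a mouse melanoma line from Tyr∷NrasQ61K/°; INK4a-/- animals, and from 5 libraries of WT31_P5IV, a subline of WT31 made by passaging the cells over the liver 5 times after intravenous injection. The subline descends from these cells, and its INK4a alleles were not checked here. Both lines received no drug and were harvested as sub-confluent cultures, not from metastases. The comparison rests on 1 parental line and 1 subline, so an effect of hepatic passage and a property of this subline cannot be told apart, and p-values measure the spread between libraries labelled biological replicates of each line.

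Phospholipase C cleaves the membrane lipid PIP2 into IP3, which releases calcium from the endoplasmic reticulum through IP3 receptors, and diacylglycerol, which stays in the membrane and recruits protein kinase C. Beta isoforms of phospholipase C are activated by Gq proteins below G protein-coupled receptors, and gamma isoforms by tyrosine kinases. Conventional protein kinase C (alpha, beta) needs calcium and diacylglycerol, the calcium-independent class (delta, epsilon) needs diacylglycerol only, and the atypical class (zeta) needs neither. In melanocytes, phorbol esters that activate protein kinase C are used as mitogens, and protein kinase C beta is known to activate tyrosinase.

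Estimated counts per library ranged from 24255389 to 25750639. Levels are given as CPM, which is the estimated count scaled to a fixed library size after TMM normalisation, as the mean of each group's 5 libraries with its SD, and as TPM, which is per length, where genes are compared with each other. A log2 fold change is that of WT31_P5IV over WT31 from edgeR's quasi-likelihood test with its standard error (SE), and a gene was called when its Benjamini-Hochberg adjusted p over 13620 tested genes was under 0.05. A count of 3, taken as the limit of detection, corresponded to 0.114 to 0.129 CPM, for counting error only. In bulk RNA, fewer cells with a transcript and less RNA per cell cannot be told apart. Melanocyte markers were abundant in both groups (summed CPM of 7 genes, 17046 to 18443 in WT31 and 22228 to 25730 in WT31_P5IV), whereas 6 endothelial markers summed to 0.158 to 0.492 CPM in WT31 and 0.121 to 0.421 CPM in WT31_P5IV, with Cdh5 and Lyve1 at 0. The sum of 6 hepatocyte markers was 0.303 to 0.588 and 0.442 to 1.30 CPM, with Serpina1a at 0, and that of 6 stellate cell and fibroblast markers 1.97 to 2.63 and 3.12 to 3.62 CPM.

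Of the 10 isoform genes, 9 passed the filter on low counts and 7 of these were called, 5 lower and 2 higher in WT31_P5IV. Over all tested genes 68.5% were called, 33.9% lower and 34.6% higher, so a call by itself does not set these genes apart. Plcb1 and Plcg2 were lower by log2 fold changes beyond -1, a size that 3.69% of all tested genes reached in that direction and 9.19% in either direction. The CPM ranges of both groups were apart for 5 of these 9 genes, beside 54.1% over all tested genes. Prkce, Plcb3 and Prkcz were lower and Plcg1 and Prkcd higher by log2 fold changes between -0.50 and 0.22, while Plcb4 and Prkca were not called. Prkcb was too sparse to be tested in this fit.

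**Figure D1:**
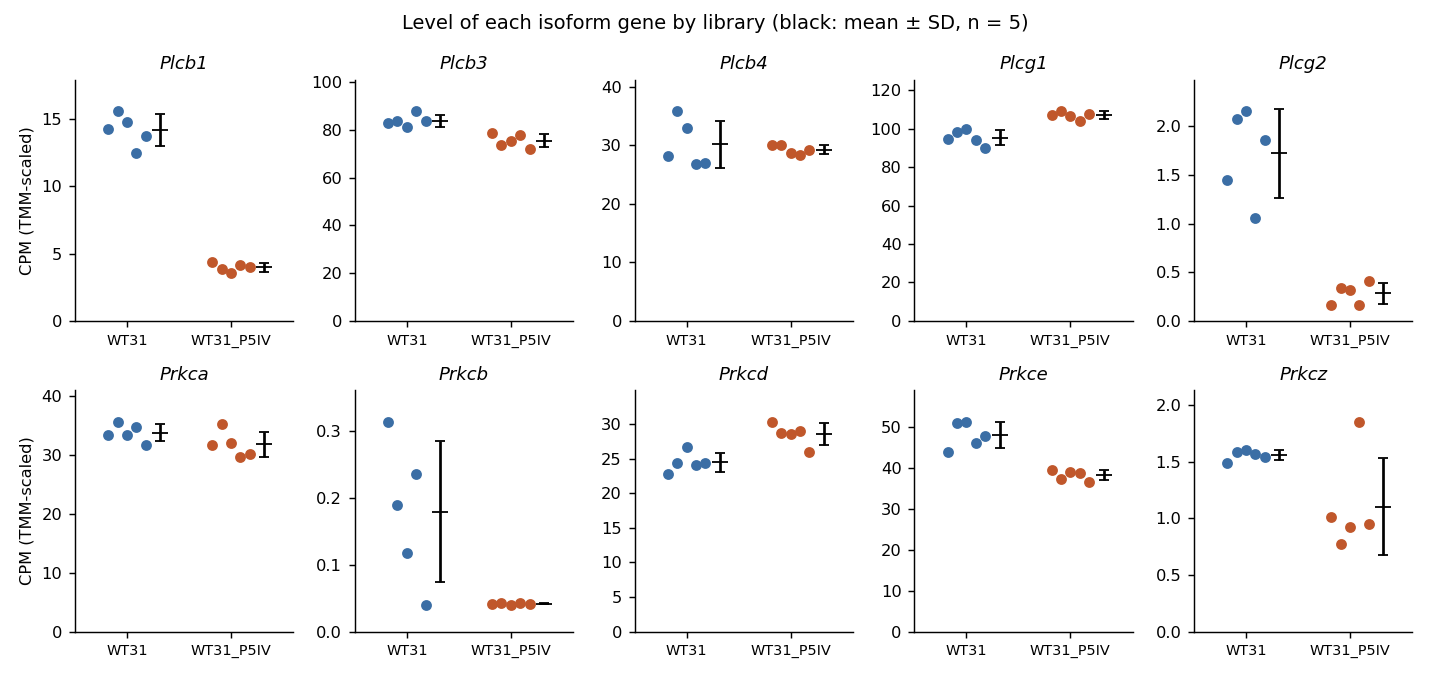
TMM-scaled CPM of each of the 10 isoform genes in the 5 WT31 libraries (blue) and the 5 WT31_P5IV libraries (orange), each panel on its own linear axis from 0; black marks give the mean ± SD. The groups are apart for Plcb1, Plcb3, Plcg1, Plcg2 and Prkce, and 1 WT31_P5IV library stands above all others for Prkcz.

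Among the beta isoforms, Plcb1 (ENSMUSG00000051177.16) fell most. Its replicates held 363, 411, 376, 316 and 347 counts in WT31 and 104, 90, 88, 98 and 96 counts in WT31_P5IV, in order of replicate number. Every WT31 library lay above every WT31_P5IV library, and the lowest WT31 library held more counts than any pair of subline libraries together. Mean CPM was 14.1 ± 1.17 in WT31 and 3.97 ± 0.310 in WT31_P5IV, 3.56-fold lower, with a log2 fold change of -1.83 (SE 0.08, adjusted p = 7.28e-11, edgeR). Plcb1 is among the genes the study itself listed from these libraries, so its direction is not independent evidence.

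Plcb3 (ENSMUSG00000024960.9, chr19:6952325-6976470, minus strand), the most abundant beta isoform here and one that both Gq and G beta-gamma subunits activate, held 2114, 2208, 2067, 2236 and 2113 counts in WT31 against 1875, 1722, 1877, 1846 and 1742 in WT31_P5IV. The groups did not overlap, but the gap was small: 83.8 ± 2.50 CPM against 75.6 ± 2.81 CPM, a log2 fold change of -0.15 (SE 0.04, adjusted p = 0.00253, edgeR). With an offset for effective length this difference was -0.01 (adjusted p = 0.789, edgeR). On the TPM scale it was -0.16 (adjusted p = 0.00740, limma on log2(TPM + 0.1)). That fit moved the median of all tested genes by -0.17. Plcb3 overlaps Ppp1r14b on the other strand, which held 3718 to 5332 counts in WT31 and 4153 to 4719 in WT31_P5IV. Of the 7123 words of 31 bases in the Plcb3 transcripts, 0 occur in any other gene. The strand setting of the counting is not given in the sources used here. Whether reads of Ppp1r14b were counted for Plcb3 was not tested.

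Plcb4 (ENSMUSG00000039943.16), known from retina and cerebellum and as the isoform below mutant Gq in uveal melanoma, held 721, 947, 840, 683 and 683 counts in WT31 and 715, 702, 715, 673 and 706 in WT31_P5IV. WT31 replicates 2 and 3 were high, and the remaining WT31 libraries lay just below all subline libraries once scaled. Its log2 fold change was -0.04 (SE 0.07, adjusted p = 0.609, edgeR), and the sign turned to 0.01 without WT31 replicate 2 and with the length offset.

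Plcb1 and Plcb4 are neighbours on chromosome 2 (GRCm38), Plcb1 at chr2:134786067-135475258 and Plcb4 at chr2:135659011-136014593, both on the plus strand, with 183752 bases and 0 tested genes between them. The 10 nearest tested genes around Plcb1 had log2 fold changes from -0.45 to 0.72 (median -0.08), beside -1.83 for Plcb1 itself. The median over the 1083 tested genes of the chromosome was 0.06. Plcg2 lies at chr8:117498291-117635142 on the plus strand of chromosome 8, and the 10 nearest tested genes around it ranged from -0.25 to 0.50, beside -2.60 for Plcg2.

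The bases upstream of the start are shown for Plcb1 and Plcg2, which fell most among the 9 tested genes, since the data bear on their transcript level (RefSeq promoters, GRCm38.p6, plus strand, 5′ to 3′). Capitals mark GC boxes, the letters GGGCGG on either strand, which may overlap each other. The stretch of Plcb1 is chr2:134785914-134786066, which ends just before the first base annotated as exon of the gene in GENCODE, and that of Plcg2 is chr8:117498025-117498274.
Plcb1: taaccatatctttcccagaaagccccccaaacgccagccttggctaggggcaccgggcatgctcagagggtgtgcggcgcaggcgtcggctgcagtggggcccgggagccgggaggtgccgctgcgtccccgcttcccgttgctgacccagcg
Plcg2: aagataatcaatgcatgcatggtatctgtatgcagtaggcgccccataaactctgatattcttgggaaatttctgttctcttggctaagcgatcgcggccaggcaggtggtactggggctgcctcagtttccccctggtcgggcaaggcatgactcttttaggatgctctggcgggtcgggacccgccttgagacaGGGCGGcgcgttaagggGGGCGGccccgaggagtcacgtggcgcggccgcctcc

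The Plcg2 stretch holds 2 GC boxes, and that of Plcb1 holds 0 in these 153 bases and 1 in its full 250-base window. Of the 2 windows of Plcb4, which was not called, the upstream one holds 7 and the other 0. Promoters of 9 of the 10 genes were matched by symbol, and each of the 9 had a GC box in at least 1 window of 250 bases before a start, 10 of 13 windows in all, against 32.7% of 32817 promoters of the same length. The other letters searched on both strands were TATAAA (in 12.4% of all promoters), TGANTCA (6.75%), TCATGTG (3.25%), CCGGAAGT (2.88%) and TGACGTCA (1.55%). Among the windows of these genes, TGANTCA was found before Plcb3 and TATAAA before Prkcd, and the rest in none. A match is a description of letters and not a shown binding site.

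Of the gamma isoforms, Plcg1 (ENSMUSG00000016933.17, chr2:160731300-160775760, plus strand), the widely expressed form that growth factor receptors activate, held 2408, 2597, 2548, 2390 and 2266 counts in WT31 and 2552, 2543, 2656, 2463 and 2609 in WT31_P5IV. On scaled libraries all 5 subline values lay above WT31, at 107 ± 1.98 CPM against 95.3 ± 4.00 CPM. The log2 fold change was 0.17 (SE 0.04, adjusted p = 9.22e-04, edgeR). On the TPM scale it was 0.08 (adjusted p = 0.192, limma on log2(TPM + 0.1)), where the median of all tested genes lay 0.17 lower than in the count fit. Plcg1 overlaps Zhx3 on the other strand and shares 4.48% of its 31-base words, the length kallisto matches by default, with other genes.

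Plcg2 (ENSMUSG00000034330.10), best known in B cells, mast cells and platelets, was low in WT31 and lower in the subline. Its libraries held 37, 55, 55, 27 and 47 counts in WT31 and 4, 8, 8, 4 and 10 in WT31_P5IV. No value of one group reached the other, although the lowest subline libraries were just over the limit of detection. Mean CPM fell from 1.72 ± 0.461 to 0.283 ± 0.110, 6.09-fold lower, with a log2 fold change of -2.60 (SE 0.28, adjusted p = 1.15e-06, edgeR). On the TPM scale, where the pseudocount weighs on so low a gene, it was -1.91 with log2(TPM + 0.1) and -0.57 with log2(TPM + 1), called in both (limma). The gene has 1 annotated transcript and shares 0 31-base words with other genes. Of 9 leukocyte markers, 5 (Ptprc, Adgre1, Itgam and Cd3e among them) had 3 counts or fewer in every library, none of the 9 was at 0 in all, and the summed CPM was 5.15 to 6.84 in WT31 and 4.89 to 7.19 in WT31_P5IV. Of the 2 markers tested, Cd68 was higher and Lyz2 lower, and their part in the Plcg2 difference was not tested.

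Per length, Plcb3 and Plcg1 were the leading phospholipase C isoforms. In WT31 they stood at 35.4 ± 0.582 and 34.6 ± 2.76 TPM, with overlapping ranges, followed by Plcb4 at 17.1 ± 3.15, Plcb1 at 3.21 ± 0.487 and Plcg2 at 0.629 ± 0.179 TPM. In WT31_P5IV the order of the leading genes was Plcg1 at 36.6 ± 1.18 and Plcb3 at 31.8 ± 1.70 TPM, without overlap, then Plcb4 at 15.6 ± 0.801, Plcb1 at 0.788 ± 0.0824 and Plcg2 at 0.0915 ± 0.0363 TPM. Plcb1 and Plcg2 were thus minor isoforms by level.

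The share of Plcb1 in the TPM of the 3 beta genes dropped from 5.74% ± 0.531 to 1.63% ± 0.141, and that of Plcg2 in the TPM of the 2 gamma genes from 1.77% ± 0.441 to 0.248% ± 0.0951. Plcg1 made 39.0%, 38.1%, 38.0%, 38.3% and 37.0% of the 5 phospholipase C genes in WT31 and 41.6%, 45.4%, 42.8%, 43.0% and 42.9% in WT31_P5IV. For all these shares the groups were apart, with p = 0.00794 in a two-sided exact permutation test (n = 5 per group), the smallest p it allows, and 0.0215 after adjustment over 46 shares and sums. The summed TPM of the 5 genes was 90.9 ± 6.64 in WT31 and 84.9 ± 0.577 in WT31_P5IV (exact permutation p = 0.0794, n = 5 per group, adjusted 0.126), a difference not past the threshold. Without WT31 replicate 5 it was past it, at -7.78 TPM (exact permutation test, adjusted p = 0.0384). As unscaled estimated counts the sums averaged 5771 and 5181 (exact permutation p = 0.00794, n = 5 per group, not adjusted). Library sizes after TMM scaling did not overlap, at 25251982 to 26422248 in WT31 and 23313803 to 24864945 in WT31_P5IV. These unscaled sums therefore also carry that difference in size.

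**Figure D2:**
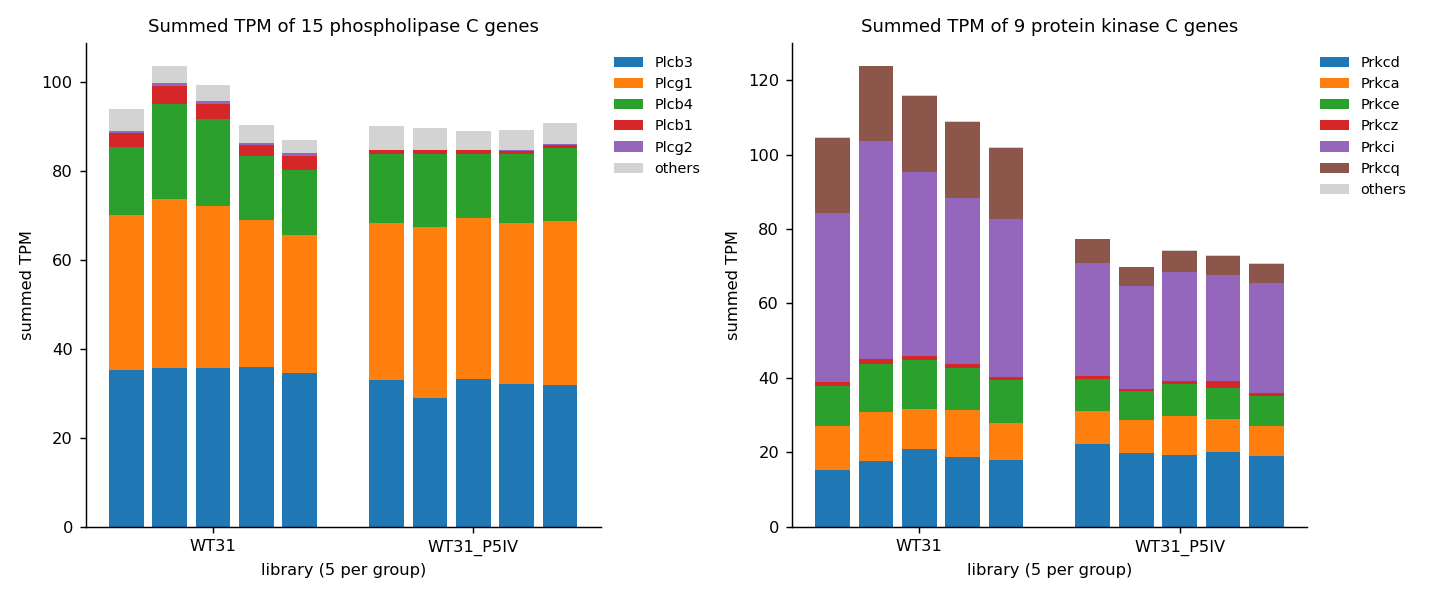
Summed TPM of the 15 phospholipase C genes (left) and the 9 protein kinase C genes (right) in each library, 5 per group, stacked by gene with the remaining genes in grey. The phospholipase C sums overlap (86.9 to 103.6 and 88.9 to 90.7 TPM), while the protein kinase C sum is lower in all 5 WT31_P5IV libraries (69.9 to 77.4 against 102 to 124 TPM), with the smaller Prkci and Prkcq blocks.

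Among the conventional kinases, Prkca (ENSMUSG00000050965.14, chr11:107933387-108343928, minus strand), expressed in most tissues, held 851, 941, 852, 886 and 802 counts in WT31 and 753, 823, 797, 706 and 730 in WT31_P5IV. The ranges overlapped on scaled libraries, at 33.8 ± 1.49 CPM against 31.8 ± 2.20 CPM, with a log2 fold change of -0.09 (SE 0.05, adjusted p = 0.138, edgeR). On the TPM scale Prkca was called lower, with -0.38 (adjusted p = 0.00249, limma on log2(TPM + 0.1)), in a fit that moved the median of all tested genes by -0.17. With the length offset Prkca was -0.25 (adjusted p = 0.0164, edgeR). Without WT31 replicate 5 it was -0.13 (adjusted p = 0.0431, edgeR) and without WT31_P5IV replicate 2 it was -0.13 (adjusted p = 0.0230, edgeR). The direction was the same in all 20 alternatives run, and the call depends on the scale and on these libraries.

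Prkcb (ENSMUSG00000052889.11, chr7:122288751-122634402, plus strand), the isoform known to activate tyrosinase, was close to the limit of detection. Its WT31 libraries held 8, 5, 3, 6 and 1 counts, and each WT31_P5IV library held 1. WT31 replicate 5 was as low as the subline, and the other WT31 libraries were higher. All subline libraries were under the limit, so the level was at least 1.43-fold lower against a floor of 3 counts per library (exact permutation p = 0.0476, n = 5 per group, two-sided), and without any one of WT31 replicates 1 to 4 that p was 0.0952, without any one WT31_P5IV library 0.0794, and without WT31 replicate 5 0.0159. With every gene of at least 1 count tested, the adjusted p was 0.0133 (edgeR), and in limma voom without scaling or filter it was 0.0839. Prkcb too is among the genes the study listed from these libraries.

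Of all 31-base words of the Prkcb transcripts 0.431% occur in any other gene, and of those of Prkca 0.279%. The longest stretch shared by the longest coding sequences of Prkca and Prkcb is 38 bases, which holds 8 such words. Whether reads of the abundant Prkca were counted for the sparse Prkcb was not tested.

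Of the calcium-independent kinases, Prkcd (ENSMUSG00000021948.17, chr14:30595354-30626210, minus strand), which is known for roles in apoptosis, held 582, 645, 682, 612 and 614 counts in WT31 and 721, 670, 712, 687 and 628 in WT31_P5IV. The groups overlapped by 1 library, WT31_P5IV replicate 5, which lay below WT31 replicate 3. Mean CPM rose from 24.5 ± 1.43 to 28.5 ± 1.59, a log2 fold change of 0.22 (SE 0.05, adjusted p = 0.00183, edgeR). On the TPM scale the value was 0.16 (adjusted p = 0.0939, limma on log2(TPM + 0.1)).

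Prkce (ENSMUSG00000045038.14, chr17:86167785-86657919, plus strand), the isoform often described as promoting growth and survival, held 1121, 1349, 1309, 1176 and 1209 counts in WT31 and 943, 871, 969, 920 and 887 in WT31_P5IV. All subline libraries were lower than all WT31 libraries. Mean CPM was 48.1 ± 3.17 against 38.3 ± 1.24, a log2 fold change of -0.33 (SE 0.05, adjusted p = 2.09e-05, edgeR). This call held in all 20 alternatives run, from -0.49 to -0.30.

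With Prkcd higher and Prkce lower, the make-up of the 5 kinase genes moved. Prkcd made 38.9%, 39.3%, 45.5%, 42.6% and 44.4% of their TPM in WT31 and 54.6%, 53.5%, 48.9%, 51.5% and 52.8% in WT31_P5IV. Prkce fell from 27.7% ± 1.32 to 21.8% ± 0.577. Both shares were apart between the groups (exact permutation p = 0.00794, n = 5 per group, 0.0215 adjusted over the 46 shares and sums). The share of Prkca was 27.3% ± 2.79 in WT31 and 23.3% ± 2.04 in WT31_P5IV (exact permutation p = 0.0397, n = 5 per group, adjusted 0.0761). On estimated counts that share was 31.3% ± 1.45 and 31.9% ± 1.73, in the other direction (exact permutation p = 0.579, n = 5 per group, not adjusted). The direction of the Prkce and Prkca shares also depends on the genes in the denominator. Over all 9 protein kinase C genes the share of Prkce was higher in the subline, 10.7% ± 0.4601 in WT31 and 11.5% ± 0.144 in WT31_P5IV, with the groups apart (exact permutation p = 0.00794, n = 5 per group, adjusted 0.0215). That of Prkca was 10.5% ± 0.953 in WT31 and 12.2% ± 1.152 in WT31_P5IV (exact permutation p = 0.0397, n = 5 per group, adjusted 0.0761), and on estimated counts 11.6% and 15.5% (exact permutation p = 0.00794, n = 5 per group, not adjusted).

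Prkcz (ENSMUSG00000029053.16, chr4:155260129-155361361, minus strand), the atypical isoform of cell polarity, held 38, 42, 41, 40 and 39 counts in WT31 and 24, 18, 23, 44 and 23 in WT31_P5IV. The WT31 libraries were within a few counts of each other, and 4 of the 5 subline libraries lay below them, while WT31_P5IV replicate 4 lay above all. The log2 fold change was -0.50 (SE 0.21, adjusted p = 0.0415, edgeR), and it was -0.78 (adjusted p = 4.69e-04) without WT31_P5IV replicate 4. The call was lost in 9 of the 10 fits that left out a library, with the exception of that one, and in DESeq2 (adjusted p = 0.0646).

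Reads of Prkcz can also fit its processed pseudogene Prkcz2 (chr7:27882755-27884510, minus strand, GRCm38), with which it shares 1164 of its 6376 words of 31 bases (18.3%). The longest run of the Prkcz coding sequence found unchanged in Prkcz2 is 302 bases. The end of that run and the bases after it are shown, 120 bases from position 1335 of the Prkcz coding sequence, with the 1 base that differs in capitals (GENCODE M21, GRCm38, sense strand).
Prkcz: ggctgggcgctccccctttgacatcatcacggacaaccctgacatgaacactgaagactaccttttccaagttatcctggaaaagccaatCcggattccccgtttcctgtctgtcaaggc
Prkcz2: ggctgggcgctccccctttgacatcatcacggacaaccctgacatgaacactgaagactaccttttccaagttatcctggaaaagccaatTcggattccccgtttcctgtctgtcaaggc

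Prkcz2 held 18, 16, 24, 18 and 26 counts in WT31 and 33, 32, 33, 30 and 34 in WT31_P5IV, higher in every subline library. Its log2 fold change was 0.76 (SE 0.17, adjusted p = 0.00105, edgeR), opposite to that of Prkcz. Summed, both genes held 56, 58, 65, 58 and 65 counts in WT31 and 57, 50, 56, 74 and 57 in WT31_P5IV. The sums overlapped, at 2.36 ± 0.189 CPM against 2.45 ± 0.384 CPM (exact permutation p = 0.746, n = 5 per group, two-sided), a comparison chosen after the values were seen. How the reads were split between the gene and the pseudogene was not tested.

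**Figure D3:**
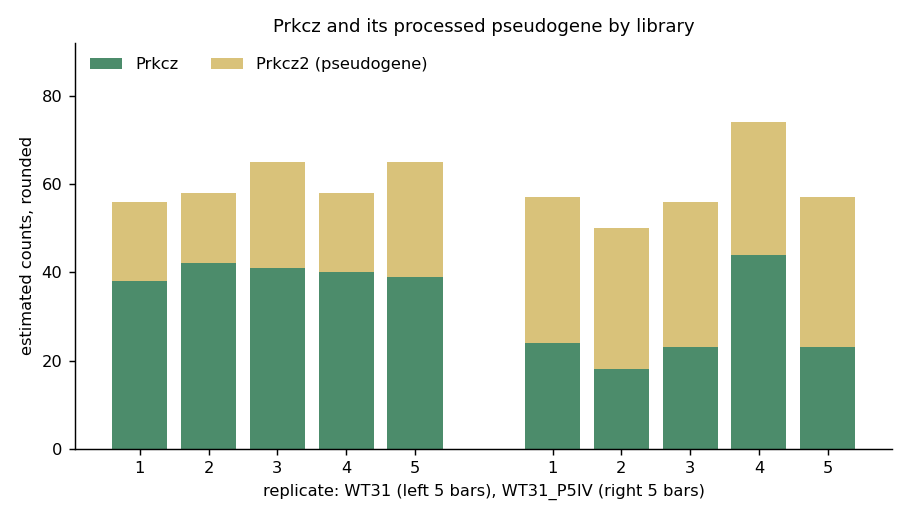
Rounded estimated counts of Prkcz (green) and of its processed pseudogene Prkcz2 (yellow), stacked, in each replicate of WT31 (left 5 bars) and WT31_P5IV (right 5 bars). Prkcz is lower in 4 of 5 subline libraries and Prkcz2 higher in all 5, and the stacked heights of 50 to 74 counts overlap those of 56 to 65 in WT31.

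The ratio of a gene's estimated count to its TPM gives its effective length, which moves when the mix of its transcripts moves. Relative to the median gene of the library, that of Plcb3 went from 1.58 ± 0.0268 to 1.43 ± 0.0485, so that it fell by 9.84% with the groups apart (exact permutation p = 0.00794, n = 5 per group, adjusted 0.0265 over the 10 genes). For Prkcz it fell from 0.964 ± 0.125 to 0.694 ± 0.111, and thus fell by 28.1% (exact permutation p = 0.0159, n = 5 per group, adjusted 0.0397), with the groups overlapping. Plcg2, which has a single annotated transcript, moved by 1.20%, and Prkce by 0.930%, both also with the groups apart. Leaving out 1 library at a time, the adjusted p of Plcb3 was 0.0397 to 0.0529 and past the threshold in 3 of 10 cases, and that of Prkcz was past the threshold in 2 of 10 cases. For Plcb1, Plcb4, Plcg1, Prkca, Prkcb and Prkcd the adjusted p lay between 0.0794 and 0.492.

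**Figure D4:**
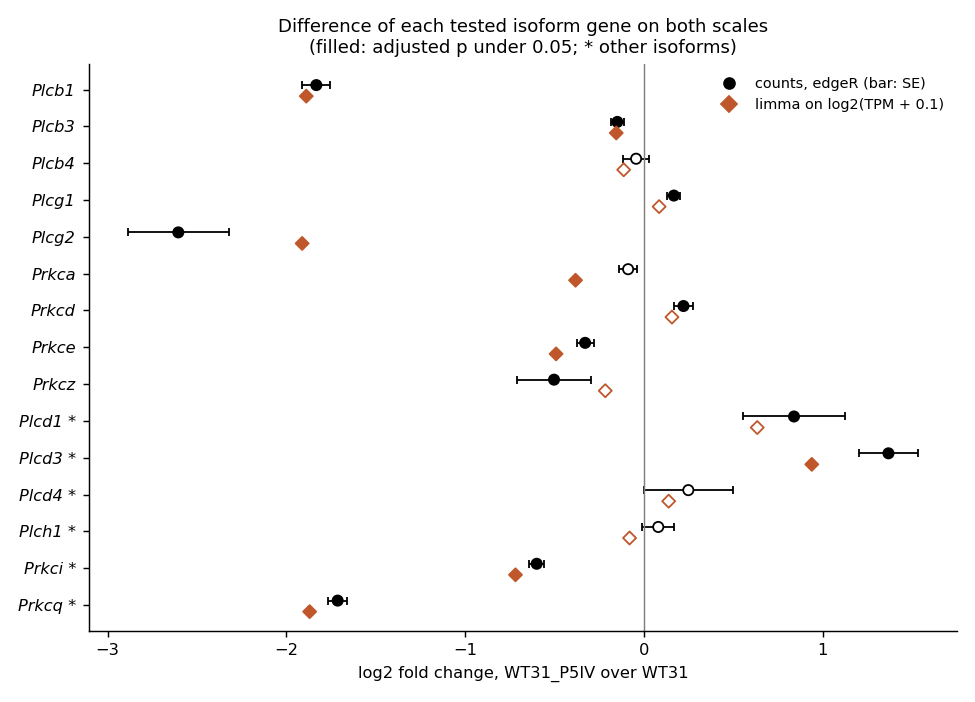
Log2 fold change of WT31_P5IV over WT31 for the tested isoform genes, from counts (black circles, edgeR, bars give the SE) and from limma on log2(TPM + 0.1) (orange diamonds); filled symbols have an adjusted p under 0.05 and asterisks mark isoforms outside the 10 genes. Plcb1, Plcb3, Plcg2 and Prkce are called lower on both scales, whereas Plcg1, Prkcd, Prkcz and Plcd1 are called on counts only and Prkca on TPM only. The TPM fit moved the median of all tested genes by -0.17, and Plcb3 was -0.16 on that scale.

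The remaining isoforms of both families were set beside these genes. Of 10 other phospholipase C genes 4 were tested: Plcd3, a delta isoform, rose by a log2 fold change of 1.37 (SE 0.16, adjusted p = 3.58e-06, edgeR) and Plcd1 by 0.84 (SE 0.29, adjusted p = 0.0182), a call not made on the TPM scale (0.63, adjusted p = 0.0511, limma on log2(TPM + 0.1)), while Plcd4 (0.25) and Plch1 (0.08) were not called. Plcb2, Plce1, Plch2, Plcl1, Plcl2 and Plcz1 held 0 to 4 counts per library and were not tested. Plcd3 stood at 0.828 ± 0.288 TPM in WT31 and 1.63 ± 0.189 in WT31_P5IV, a minor part of a family whose summed TPM over 15 genes was 94.8 ± 6.74 and 89.7 ± 0.706 (exact permutation p = 0.143, n = 5 per group, adjusted 0.219). As unscaled estimated counts, not corrected for the smaller scaled library sizes of WT31_P5IV, the sums averaged 5957 and 5414 (exact permutation p = 0.00794, n = 5 per group, not adjusted).

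Of 4 other protein kinase C genes, Prkcq and Prkci were tested and both were lower. Prkcq, the theta isoform known from T cells, held 1118, 1157, 1110, 1161 and 1125 counts in WT31 and 360, 308, 347, 302 and 302 in WT31_P5IV, a log2 fold change of -1.71 (SE 0.05, adjusted p = 1.58e-12, edgeR). Prkci, the atypical iota isoform, was at 138 ± 7.91 CPM against 91.2 ± 2.07 CPM, with -0.60 (SE 0.04, adjusted p = 1.03e-08). Prkch held 0 to 3 counts per library and was not tested. Over all 9 kinase genes the summed TPM fell from 111 ± 8.87 to 73.1 ± 2.99 (exact permutation p = 0.00794, n = 5 per group, adjusted 0.0215), and the share of Prkcd in it rose from 16.3% ± 1.73 to 27.5% ± 1.16 as that of Prkcq dropped from 18.1% ± 1.14 to 7.42% ± 0.576. The sum over Prkca, Prkcb, Prkcd, Prkce and Prkcz alone was 42.9 ± 3.03 TPM in WT31 and 38.5 ± 1.85 TPM in WT31_P5IV (exact permutation p = 0.0556, n = 5 per group, adjusted 0.0913). As unscaled estimated counts, again not corrected for library size, it averaged 2771 and 2391 (exact permutation p = 0.00794, n = 5 per group, not adjusted).

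Further genes of the pathway were read as 14 lists holding 154 genes. Of the 101 tested, 33 were higher and 41 lower, beside 34.6% higher and 33.9% lower over all tested genes, so the called share of 74 in 101 is near the 68.5% of all genes. Their median log2 fold change was -0.08, beside 0.01 over all tested genes. Upstream of Plcb1, Plcb3 and Plcb4, both tested Gq alpha subunits were lower, Gnaq by -0.52 (SE 0.05, adjusted p = 4.42e-07, edgeR) and Gna11 by -0.10 (SE 0.04, adjusted p = 0.0476), a call lost with upper-quartile scaling, with the length offset and in 6 of the 10 fits that left out a library. Of 11 tested receptors known to couple to Gq 3 were higher and 5 lower, among them the lysophosphatidic acid receptors Lpar3 (-2.95) and Lpar2 (1.55) and the thrombin receptor F2r (-1.96). Of 3 tested genes that curb Gq, Rgs3 (0.51) and Grk2 (0.21) were higher, and 1 was not called, at -0.71. The call of Grk2 was not kept in every alternative. In the supply of PIP2, 5 of 13 tested genes were higher and 6 lower, with the phosphatidylinositol kinases Pi4k2b at -1.36 and Pi4ka at -0.76.

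Downstream of phospholipase C, all 8 IP3 receptor and store-operated calcium entry genes were called higher, with a median of 0.51 and Itpr3 (1.08, SE 0.06, adjusted p = 1.15e-09, edgeR) and Itpr1 (0.79, SE 0.09, adjusted p = 2.74e-06) leading. On the TPM scale 5 of the 8 were called higher, without Stim2, Orai2 and Orai3, and none changed sign. Of the 9 tested calcineurin and NFAT genes 7 were lower and 0 higher, led by Nfatc1 (-1.16) and Ppp3ca (-0.56), with a median of -0.46. Of 8 tested genes of IP3 metabolism 3 were higher and 4 lower, with the IP3 kinase Itpka at 1.56 and the phosphatase Inpp5a at -0.63.

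Around protein kinase C, 6 of 7 tested substrates were lower and 0 higher, with a median of -0.44. Cavin2 fell from 299 ± 11.01 to 178 ± 3.38 CPM (log2 fold change -0.74, SE 0.03, adjusted p = 1.55e-10, edgeR), and Gap43, with 16 to 24 counts in WT31 and at most 3 in WT31_P5IV, was at least 5.72-fold lower against a floor of 3 counts per library. These are transcripts of substrates and carry no measure of phosphorylation. Of 7 tested diacylglycerol kinases 4 were higher and 2 lower (Dgki -1.47, Dgkq 0.66), and of 9 other diacylglycerol effectors 0 were higher and 3 lower (Prkd1 -0.50, Prkd3 -0.29). Among 11 tested anchors and partners 4 were higher and 3 lower (Sdcbp -0.94, Akap5 0.82), and among 7 genes of priming and turnover 2 were higher and 1 lower (Phlpp2 0.34, Mapkap1 -0.27).

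**Figure D5:**
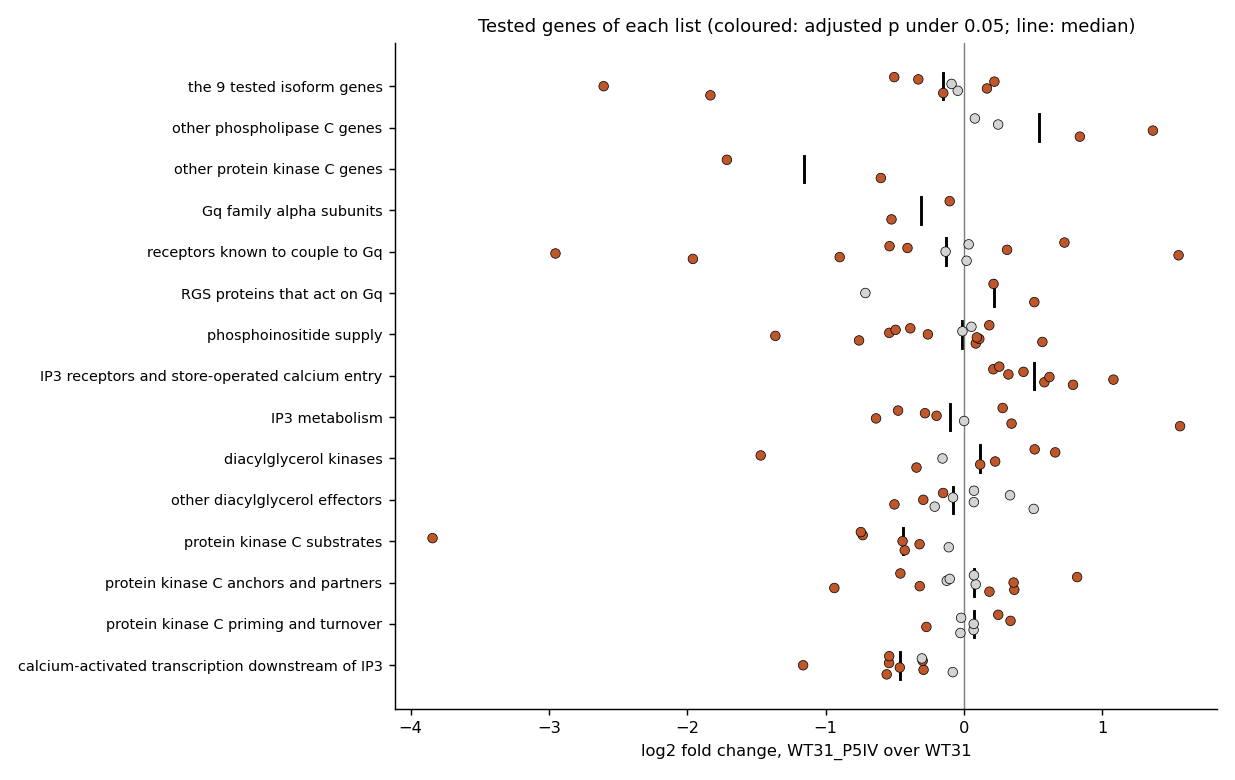
Log2 fold change of WT31_P5IV over WT31 for each tested gene of the isoform set (top) and of the 14 pathway lists; coloured points have an adjusted p under 0.05 in edgeR and the black line is the median of the list. All 8 genes of the IP3 receptor and calcium entry list lie above 0, and the calcineurin and NFAT list lies below 0 with a median of -0.46.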

How the data were processed

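RNA of 5 WT31 and 5 WT31_P5IV libraries was analysed. According to the submitters' processing notes, the authors trimmed reads with Trim Galore 0.6.4 and ran kallisto (version 0.4.6 as written there) on GRCm38.p6, and deposited estimated counts and TPM summed per gene. The strand setting and annotation release are not given in the sources used here. Symbols and positions came from GENCODE M21, which held 55144 of 55385 identifiers. The 10 genes, the lists and the tests were chosen with earlier results of these data known.

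Estimated counts were rounded and tested with edgeR 4.0.16 (filterByExpr, TMM, glmQLFit, glmQLFTest, Benjamini-Hochberg over 13620 genes) under R 4.3.3. SE is the absolute log2 fold change over the square root of F. Single values were compared by two-sided exact permutation tests, which cannot go below p = 0.00794. Promoters were those of RefSeq. Alternatives were DESeq2 1.42.0, limma 3.58.1 (voom with TMM, voom without scaling or filter, and log2(TPM + 0.1) and log2(TPM + 1)), upper-quartile scaling, at least 1 count in all, at least 10 counts in every library, an effective-length offset, the replicate number as a block, each library left out, shares of counts, and, chosen after seeing the data, Prkcz summed with Prkcz2. Named were all 10 genes, the 2 largest called changes of each list, list genes called with a log2 fold change of at least 1 in size, and the other isoforms. The tests were tried on simulated data. Some items are not reported here.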

Additional observations from a re-analysis of the deposited data

Results flagged for a closer look

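In 5 of 78 groups of libraries examined, 1 library stood apart from the other 4 beyond Dixon's 95% limit (gap over range above 0.71), and chance alone gives about 1 in 20. For Prkcz, WT31_P5IV replicate 4 had 1.85 CPM (44 counts) against 0.772 to 1.01 in the other subline libraries. Lpar3 had 0.463 CPM (11 counts) in WT31_P5IV replicate 1 against 0.129 to 0.168. Dgki had 13.3 CPM in WT31 replicate 3 against 11.01 to 11.5. Gap43 had 0.908 CPM (24 counts) in WT31 replicate 2 against 0.627 to 0.707. Cavin2 had 172 CPM in WT31_P5IV replicate 2, below 179 to 180.4 in the others. No library was apart for more than 1 gene. A cause was not tested.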

How the results depend on the processing

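Plcb1, Plcg2 and Prkce kept direction and call in all alternatives that gave a value (20, 19 and 20), although Plcg2 was -1.91 and -0.57 in the TPM fits. Fits on TPM moved the median of all genes by -0.17 and -0.16, and no cause of the changes below was tested. Plcb3 was -0.014 with the length offset, and Plcb4 was 0.014 with it (-0.098 to 0.013 leaving out a library). Plcg1 was no longer called at 0.10 (voom without scaling or filter), 0.085 and 0.082 (both TPM fits), nor was Prkcd at 0.15, 0.16 and 0.15 in the same fits, so that the 2 higher calls became 0. Prkca was called at -0.16 (that voom fit), -0.14 (at least 1 count), -0.25 (offset), -0.38 and -0.35 (TPM), and ranged from -0.13 to -0.071 leaving out a library. Prkcb was -1.52 in voom without scaling or filter and -2.36 to -1.80 leaving out a library. Prkcz was not called at -0.53 (DESeq2), -0.63 (voom without scaling or filter), -0.47 (upper quartile), -0.015 (offset), -0.22 and -0.10 (TPM), and was 0.057 summed with Prkcz2. In voom with TMM Prkcz stayed called at -0.56 (adjusted p = 0.0173, limma). Leaving out a library it ranged from -0.78 to -0.41.

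Of the IP3 receptor list 5 genes were called higher under both TPM fits. The share of Prkca among the 5 kinase genes differed by 0.573 percentage points on counts and by -5.00 to -3.42 leaving out a library, and that of Prkci among all 9 by -2.96 and by -3.99 to -2.46. The phospholipase C sum differed by -7.78 to -3.81 TPM. Relative effective length, leaving out a library, changed by -10.9% to -9.00% for Plcb3, 1.10% to 1.29% for Plcg2, 0.865% to 1.04% for Prkce, -32.3% to -24.2% for Prkcz and -13.1% to 17.9% for Prkcb, and the calls of Plcb3, Plcg2 and Prkce were lost in 7 of 10 cases each, at an adjusted p of 0.0529. Prkcb kept direction and call in 4 of 10 cases, and its adjusted p reached 0.0397 (exact permutation test). Of 575 values for 29 other named genes 548 kept call and direction and 27, of Plcd1, Gna11, Grk2, Akap5 and Phlpp2, were no longer called. Prkcb, and Plcg2 in the subline with 4 to 10 counts, are limited by depth.

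With the replicate number as a block, 7 of the isoform genes were called as before and 73 in place of 74 pathway genes. Same-numbered libraries deviated together with r from -0.10 to 0.26, and WT31 replicates 3 and 4 alone correlated best with their own number. The labels give no link beyond the number, and 5 pairs are too few to decide whether same-numbered libraries were handled together. The block moved the calls over all genes from 9327 to 9380.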
